A study of Mus musculus with 9 samples.

Results

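The genes described here are 9 genes of brain microglia, Csf1r, Cx3cr1, P2ry12, C1qa, C1qb, C1qc, Trem2, Tyrobp and Ctss, as they were counted in RNA from sorted neuronal nuclei. They were chosen by name and make up 9 of the 48709 genes listed in each of the 9 exon count tables. Nuclei came from frozen hippocampus, were stained with an antibody against NeuN, a nuclear protein of most mature neurons, and were collected by fluorescence-activated sorting. The sort thus aimed at neurons, and microglia carry no NeuN.

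The libraries fell into 3 groups of 3 mice. Vehicle-treated WT mice were C57BL/6J animals on drinking water without caffeine, and are called WT mice in what follows. Vehicle-treated Tg4-42 mice carried, on the C57BL/6J background and in the homozygous state, human Aβ4-42 fused to the murine TRH signal peptide under the murine Thy1 promoter, which drives the transgene in neurons and not in microglia. Caffeine-treated Tg4-42 mice drank 0.3 g/l caffeine for 4 months from 2 months of age, and all groups were 6 months old at the end. Caffeine was not given to WT mice among these libraries, so its effect could be read only in transgenic mice.

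Microglia are the resident macrophages of the brain. They depend on the receptor Csf1r for survival, sense neuronal fractalkine through Cx3cr1 and extracellular nucleotides through P2ry12, and sense lipids and cell debris through Trem2, which signals through its adaptor Tyrobp. They are also the main source of C1q, the protein that starts the classical complement cascade and tags synapses for removal, and they are rich in the lysosomal protease cathepsin S, encoded by Ctss. Several of these genes are controlled by the myeloid factor PU.1, encoded by Spi1, which binds purine-rich DNA with the core letters GAGGAA.

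Upstream windows are shown for those of the genes that held short letters of this kind, which the choice of the genes did not use. The RefSeq promoter table for build GRCm38.p6 held 6 of the 9 genes, namely P2ry12, Ctss, C1qb, C1qc, Cx3cr1 and Trem2. In the 250 bases before the annotated start, GAGGAA or its reverse complement TTCCTC, searched on both strands, was found in 4 of these 6 genes and in 23.3% of all 32851 promoters of the table. Stretches holding the match are printed 5′ to 3′ on the strand of the gene, with the matching letters in capitals.

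Ctss, chr3:95526575-95526674, plus strand: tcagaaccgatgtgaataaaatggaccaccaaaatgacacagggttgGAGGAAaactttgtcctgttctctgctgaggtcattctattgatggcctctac
C1qb, chr4:136886201-136886300, minus strand: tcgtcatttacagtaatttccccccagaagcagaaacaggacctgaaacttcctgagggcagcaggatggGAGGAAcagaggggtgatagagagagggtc
C1qc, chr4:136893066-136893154, minus strand: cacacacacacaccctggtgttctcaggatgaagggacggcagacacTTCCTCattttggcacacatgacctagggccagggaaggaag
Trem2, chr17:48346301-48346400, plus strand: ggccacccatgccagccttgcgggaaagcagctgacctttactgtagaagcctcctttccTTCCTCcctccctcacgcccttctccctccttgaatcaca

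Distances are counted from the RefSeq start, which can differ from the GENCODE start of the gene coordinates given here. The match began 164 bases before the start in Ctss, 30 bases before it in C1qb, 193 in C1qc and 40 in Trem2. No match was found in the windows of P2ry12 and Cx3cr1. A match is a description of the letters and not of a bound site. Spi1 itself was at 1 to 5 counts in each of the 9 libraries.

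All 9 genes were detected in every library. A floor of 3 counts in a library stands for 0.189 to 0.324 CPM (counts per 1000000, scaled by the trimmed mean of M values), at depths of 9342945 to 16376922 counts. The lowest single value of any of the 9 genes was 9 counts, for Tyrobp in vehicle-treated Tg4-42 mouse 3, with a 95% exact Poisson interval of 4.12 to 17.1 counts. With a floor of 10 counts instead, 8 of the 9 genes passed in all 9 libraries. Intervals and floors cover counting error only.

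The levels were low for this material. Summed over the 9 genes, the libraries held 31.6 to 55.5 CPM, or 381 to 867 counts. Among the 17361 genes tested, ordered by mean CPM, Ctss stood at 64.0% from the top, Csf1r at 65.8% and Tyrobp at 91.5%. By contrast, the 12 neuronal markers summed to 13323 to 16820 CPM per library, led by Meg3, Syt1 and Snap25. The genotype labels were checked with Trh, the gene whose signal peptide is in the construct, which averaged 2.76 ± 1.42 CPM in WT, 58.4 ± 6.74 in vehicle-treated and 55.1 ± 6.27 in caffeine-treated Tg4-42 mice (SD, n = 3).

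Per exon length, Ctss and C1qb were the most abundant of the 9 genes. Over the 9 libraries Ctss averaged 5.79 ± 1.53 CPM per kilobase and C1qb 5.07 ± 1.20 (SD, n = 9), and Ctss was above C1qb in 6 of 9 libraries, so the pair could not be ordered beyond their spread. A step lower, P2ry12 at 2.54, C1qc at 2.52 and C1qa at 2.51 CPM per kilobase were also not ordered. C1qb was above P2ry12 in 9 of 9 libraries, by a mean ratio of 2.02. Tyrobp followed at 1.56, below C1qa in all 9 libraries. Csf1r at 1.21 was below Tyrobp in 7 of 9 libraries, Cx3cr1 at 0.891 was below Csf1r in 7 of 9, and Trem2 at 0.50 was below Cx3cr1 in 9 of 9. The order of Tyrobp, Csf1r and Cx3cr1 thus did not hold in every library.

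The place of Trem2 depended on the length used. Its merged exons span 4946 bases, while its longest coding transcript has 1088. Per kilobase of the longest coding transcript, a setting added after the data were seen, Trem2 averaged 2.27 and moved from place 9 to place 6, and C1qc averaged 4.04 and moved from place 4 to place 3. Ctss and C1qb kept places 1 and 2.

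**Figure D1:**
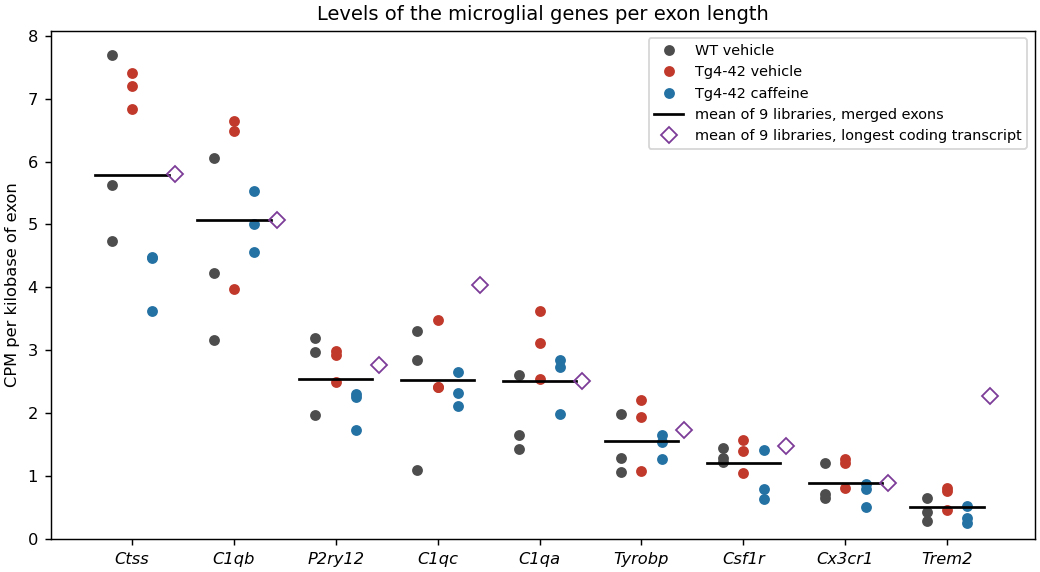
CPM per kilobase of merged exon (vertical axis) for each gene (horizontal axis, in order of the mean), with 1 point per library coloured by group, a line for the mean of the 9 libraries and an open diamond for the mean per kilobase of the longest coding transcript. Ctss and C1qb lie highest at 5.79 and 5.07, and the diamond of Trem2 lies at 2.27 against a line at 0.50.

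The 3 C1q chains are neighbouring genes on the minus strand of chromosome 4 (GENCODE M21 on GRCm38), with C1qb at chr4:136880129-136886187, C1qc at chr4:136889804-136893065 and C1qa at chr4:136895917-136898803. C1q is built from equal numbers of its A, B and C chains. Per kilobase, C1qb was 2.18 ± 0.904 times C1qa and 2.10 ± 0.474 times C1qc, and C1qa was 1.05 ± 0.317 times C1qc (SD, n = 9 libraries). By group, the mean C1qb/C1qc ratio was 2.07 for WT, 2.08 for Tg4-42 with vehicle and 2.14 for Tg4-42 with caffeine. These group means differed by less than the smallest SD of a group, 0.253. The ratios to C1qc depended on the length used. Per kilobase of the longest coding transcript, a setting added after the data were seen, C1qb was 1.31 ± 0.295 times and C1qa 0.657 ± 0.198 times C1qc, while the ratio of C1qb to C1qa did not move.

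The spread between mice of 1 group was set beside that of counting. For Tyrobp the coefficient of variation within groups was 28.4%, against 27.7% from counting alone. For C1qa these were 24.2% and 17.6%. For Csf1r they were 28.3% and 10.9%, and for C1qc 31.5% and 13.2%.

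Values in each mouse follow, beginning with the surface receptors. Csf1r (chr18:61100598-61132149), the receptor for Csf1 and Il34, was at 7.44, 7.06 and 8.39 CPM in WT mice, from 95 to 130 counts. It was at 6.05, 9.10 and 8.10 CPM in vehicle-treated Tg4-42 mice and at 8.22, 3.66 and 4.61 in the caffeine group. Of the caffeine-treated mice, 1 thus lay within the range of both vehicle groups and the other 2 lay below every vehicle-treated mouse. Csf1r shares 873 of its 5774 exon bases with Hmgxb3 on the opposite strand. The library preparation does not mark strand, so reads in that stretch could not be assigned to either gene with certainty.

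Cx3cr1 (chr9:119901616-120069879), the fractalkine receptor, was at 3.21, 2.90 and 5.42 CPM in WT mice. It was at 3.67, 5.70 and 5.45 CPM in vehicle-treated Tg4-42 mice and at 2.28, 3.59 and 3.91 in the caffeine group. All groups overlapped.

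P2ry12 (chr3:59216272-59262871), an ADP receptor that marks microglia at rest, was at 5.01, 7.57 and 8.13 CPM in WT mice. It was at 6.38, 7.43 and 7.62 CPM in vehicle-treated Tg4-42 mice and at 5.87, 4.42 and 5.76 in the caffeine group. Each caffeine-treated mouse was below each vehicle-treated Tg4-42 mouse, as held for 12.6% of all tested genes, while WT mouse 1 lay among the caffeine-treated mice. P2ry12 shares 9 exon bases with Med12l on the opposite strand.

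Among the complement genes, C1qa was at 1.72, 2.71 and 1.48 CPM in WT mice, at 3.24, 3.78 and 2.65 in vehicle-treated Tg4-42 mice and at 2.06, 2.97 and 2.84 in the caffeine group. C1qb was at 3.45, 4.60 and 6.58 CPM in WT mice, at 4.32, 7.24 and 7.06 in vehicle-treated Tg4-42 mice and at 6.02, 4.97 and 5.45 in the caffeine group. C1qc was at 2.11, 5.49 and 6.39 CPM in WT mice, at 4.65, 6.73 and 4.65 in vehicle-treated Tg4-42 mice and at 4.48, 4.07 and 5.14 in the caffeine group. The groups overlapped for all 3 chains. WT mouse 1 had the lowest C1qb and C1qc of the 9 libraries, and WT mouse 3 had the lowest C1qa.

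Trem2 (chr17:48346401-48354147) was at 1.41, 2.08 and 3.23 CPM in WT mice, from 18 to 50 counts. It was at 2.27, 4.04 and 3.77 CPM in vehicle-treated Tg4-42 mice and at 1.61, 2.62 and 1.23 in the caffeine group. Caffeine-treated mouse 2 overlapped with vehicle-treated Tg4-42 mouse 1. Its adaptor Tyrobp (chr7:30413760-30417585) had the fewest counts of the 9 genes, between 9 and 23 per library. It was at 0.862, 1.32 and 0.710 CPM in WT mice, at 1.30, 1.47 and 0.722 in vehicle-treated Tg4-42 mice and at 1.03, 1.10 and 0.844 in the caffeine group, and all groups overlapped.

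Ctss (chr3:95526786-95556403) was at 6.42, 7.63 and 10.5 CPM in WT mice. It was at 9.29, 10.1 and 9.78 CPM in vehicle-treated Tg4-42 mice and at 6.09, 6.07 and 4.91 in the caffeine group. Of the 9 genes, Ctss was the one in which every caffeine-treated mouse was below every vehicle-treated mouse of both genotypes. Of all tested genes, 12.6% were lower without overlap in caffeine-treated against vehicle-treated Tg4-42 mice, and 9.67% against WT mice. The share of genes that did both was not computed.

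**Figure D2:**
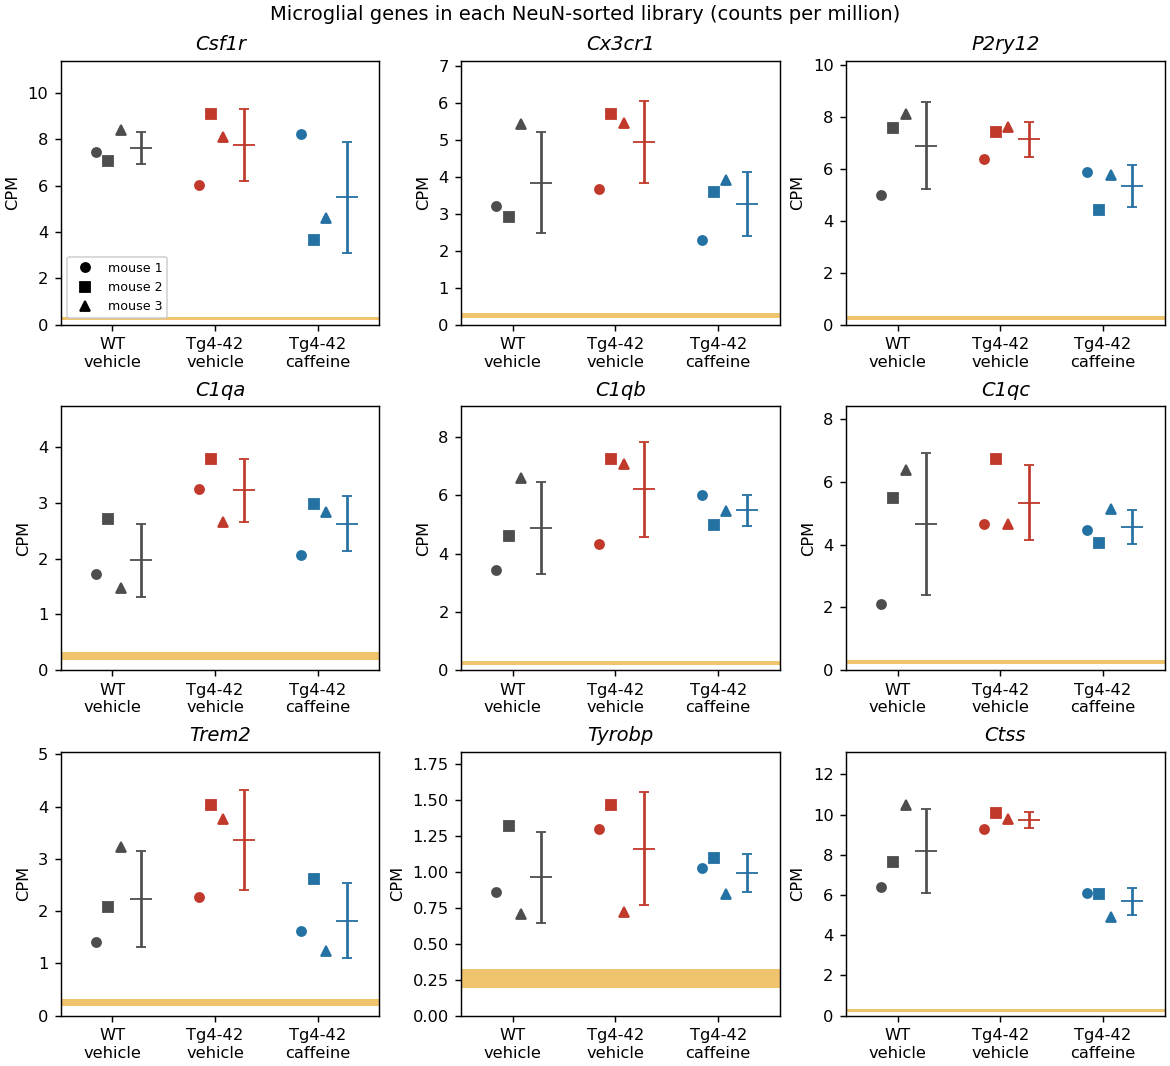
CPM (vertical axes, from 0, scaled per gene) of each gene in the 3 groups, with circle, square and triangle for mouse 1, 2 and 3 of a group, a bar for the mean ± SD, and a band for the floor of 3 counts (0.189 to 0.324 CPM). All 9 genes lie above the band in every library, and for Ctss the 3 caffeine-treated mice (4.91 to 6.09) lie below all 6 vehicle-treated mice. Of all tested genes, 12.6% were lower without overlap in caffeine-treated against vehicle-treated Tg4-42 mice, and 9.67% against WT mice.

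Single libraries moved several of the genes at once. Vehicle-treated Tg4-42 mouse 2 had the highest value of the 9 libraries for 7 of the 9 genes, the exceptions being P2ry12 and Ctss, which were highest in WT mouse 3. Summed over the 9 genes, WT mice were at 31.6, 41.4 and 50.8 CPM, vehicle-treated Tg4-42 mice at 41.2, 55.5 and 49.8, and caffeine-treated Tg4-42 mice at 37.7, 33.5 and 34.7. The WT range thus covered all 3 caffeine-treated mice and reached into the range of the vehicle-treated Tg4-42 mice. In such sorted bulk samples, fewer nuclei of a cell type and less RNA per nucleus cannot be told apart.

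**Figure D3:**
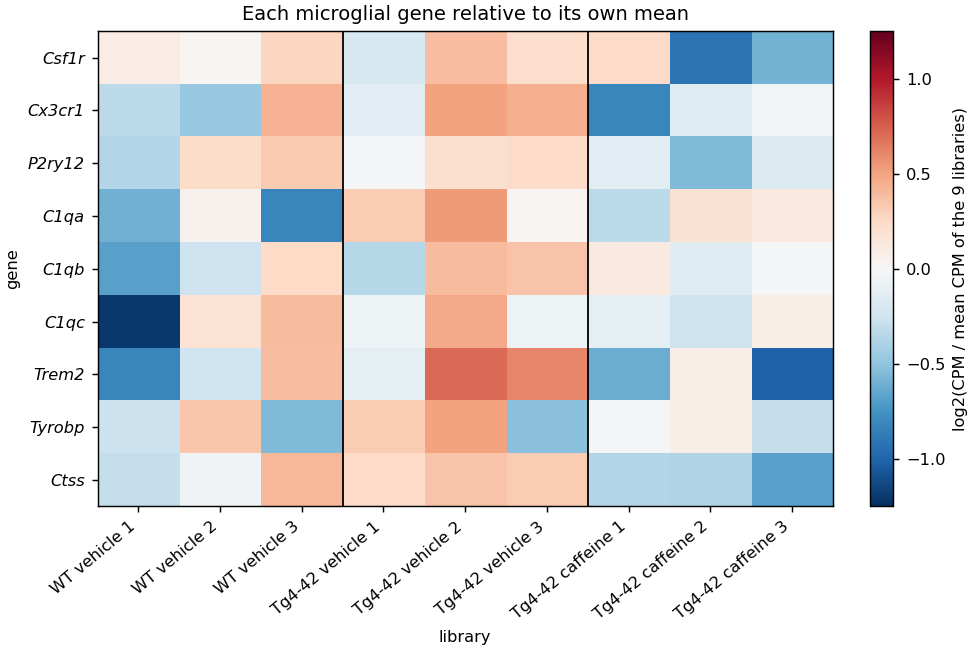
Colour gives log2 of each gene's CPM over its mean in the 9 libraries (red above, blue below the mean), with genes in rows and libraries in columns. Vehicle-treated Tg4-42 mouse 2 is above the mean for all 9 genes and holds the highest value of 7 of them.

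The first comparison asked whether neuronal expression of Aβ4-42 went along with other levels of these genes. All 9 estimates were higher in vehicle-treated Tg4-42 than in WT mice, with log2 fold changes of 0.03 (Csf1r) to 0.70 (C1qa) and a median of 0.27, while the median over all tested genes was 0.00. By edgeR's quasi-likelihood test with Benjamini-Hochberg adjustment over 17361 genes, 0 of the 9 passed an adjusted p of 0.05, beside 17 genes in all (0.0979%). The adjusted p was 1.0 for each of the 9 genes, and 1 of them, C1qa, had an unadjusted p under 0.05. DESeq2 and limma-voom also called 0 of the 9.

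C1qa averaged 1.97 ± 0.651 CPM in WT and 3.22 ± 0.567 in vehicle-treated Tg4-42 mice (SD, n = 3), a log2 difference of 0.70 (SE 0.31, 95% interval 0.04 to 1.37). Trem2 averaged 2.24 ± 0.919 and 3.36 ± 0.952 CPM, a log2 difference of 0.59 (SE 0.37, 95% interval -0.19 to 1.37). For none of the 9 genes did the groups separate without overlap. Of all tested genes, 3.57% were higher without overlap in vehicle-treated Tg4-42 mice, so 0 of 9 does not set these genes apart. For Csf1r the interval ran from -0.55 to 0.61, and for P2ry12 from -0.44 to 0.54, so for these genes a change of 2-fold lay outside the interval. For 4 of the 9 genes a 2-fold difference lay within it.

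The second comparison asked what caffeine changed in Tg4-42 mice. All 9 estimates were lower in caffeine-treated mice, with log2 fold changes of -0.89 (Trem2) to -0.19 (C1qb) and a median of -0.42, against -0.01 over all tested genes. By edgeR's quasi-likelihood test, 0 of the 9 passed an adjusted p of 0.05, beside 153 genes in all (0.881%), of which 37 were higher and 116 lower. Ctss and Trem2 had an unadjusted p under 0.05. Separation without overlap, lower in caffeine-treated mice, was seen for Ctss and P2ry12, or 2 of the 9 genes, and for 12.6% of all tested genes.

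Ctss averaged 9.71 ± 0.388 CPM in vehicle-treated and 5.69 ± 0.676 in caffeine-treated Tg4-42 mice (SD, n = 3), a log2 difference of -0.77 (SE 0.22, 95% interval -1.24 to -0.30, edgeR adjusted p = 0.103). Its call turned on the tool, with an adjusted p of 0.0376 by DESeq2 and 0.044 by limma-voom, each of which thus called 1 of the 9 genes. Those tools also called more genes in all, DESeq2 751 of 14086 genes with an adjusted p (5.33%) and limma-voom 587 of 17361 (3.38%). Trem2 averaged 3.36 ± 0.952 and 1.82 ± 0.720 CPM, a log2 difference of -0.89 (SE 0.38, 95% interval -1.69 to -0.09, edgeR adjusted p = 0.243). The receptors Cx3cr1, Csf1r and P2ry12 differed by -0.61, -0.51 and -0.42 on the log2 scale, with adjusted p of 0.331, 0.376 and 0.386 by edgeR. C1qa, C1qb, C1qc and Tyrobp had the smaller differences, from -0.30 to -0.19, each with an interval that reached from below -0.70 to above 0.30.

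The third comparison set caffeine-treated Tg4-42 mice against WT mice. It shares its groups with the other two comparisons and so is not independent of them. Of the 9 genes, 3 (C1qa, C1qb and Tyrobp) had higher and 6 had lower estimates in caffeine-treated Tg4-42 mice, with a median log2 fold change of -0.24. By edgeR 0 of the 9 passed, beside 72 genes in all (0.415%), 1 of the 9 had an unadjusted p under 0.05, and DESeq2 and limma-voom called 0. Ctss averaged 8.17 ± 2.07 CPM in WT mice against 5.69 ± 0.676 (SD, n = 3), a log2 difference of -0.52 (SE 0.22, 95% interval -0.99 to -0.06, edgeR adjusted p = 0.268). It was the 1 gene of the 9 that was lower without overlap, which held for 9.67% of all tested genes.

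**Figure D4:**
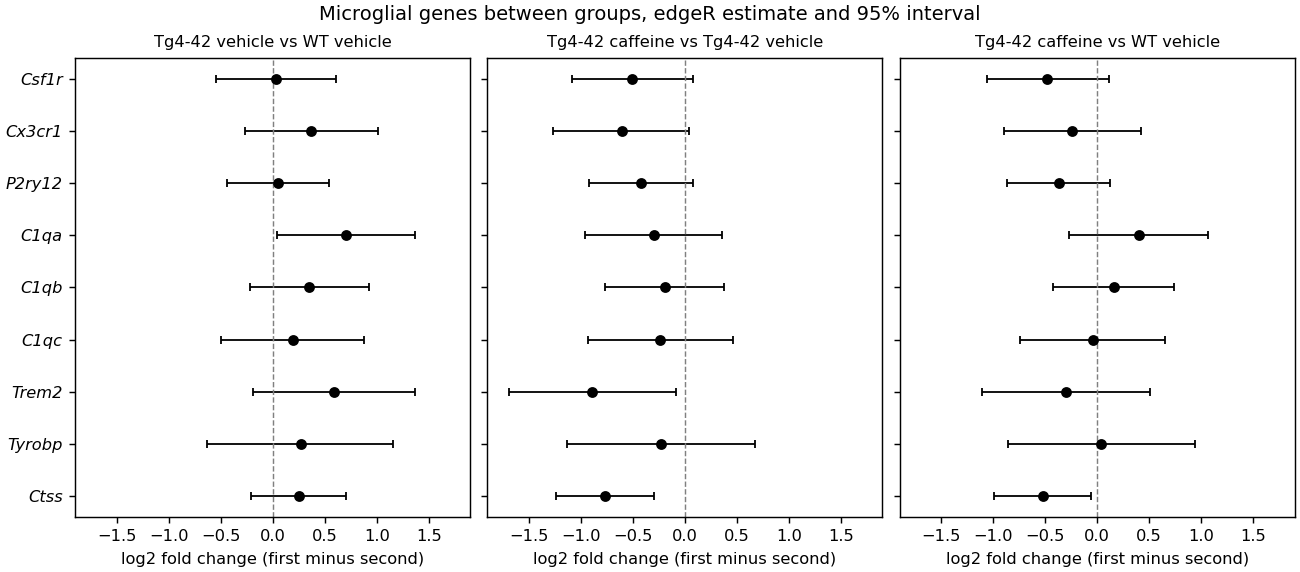
log2 fold change (horizontal axes, first group minus second) of each gene in the 3 comparisons, as the edgeR estimate with its 95% interval, and a dashed line at no difference. All 9 points lie right of the line for vehicle-treated Tg4-42 against WT mice and left of it for caffeine-treated against vehicle-treated Tg4-42 mice, and most intervals cross it.

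Further microglial genes were read in the same fit. Of 37 other microglial genes, 33 were tested, and 30 reached 3 counts in all 9 libraries. In caffeine-treated against vehicle-treated Tg4-42 mice, 5 were higher and 28 lower, with a median log2 fold change of -0.50, and 1 passed the test. This was Lgmn, a lysosomal protease that is also made outside microglia, which fell by 0.77 on the log2 scale, from 201.6 ± 36.7 to 118.0 ± 19.7 CPM (SD, n = 3, edgeR adjusted p = 0.0399). Its adjusted p was 0.0633 with the sequencing lane as a covariate and up to 0.278 without single mice. Hpgds, a prostaglandin synthase, was at 11.8 CPM in vehicle-treated and 12.4 in caffeine-treated Tg4-42 mice (edgeR adjusted p = 0.870). Without Lgmn the list summed to 131.8 ± 14.5 CPM in WT, 151.7 ± 20.5 in vehicle-treated and 116.9 ± 4.18 in caffeine-treated Tg4-42 mice (SD, n = 3).

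In vehicle-treated Tg4-42 against WT mice, 27 of the 33 other microglial genes had higher and 6 lower estimates, with a median log2 fold change of 0.29 and none that passed by edgeR. Between caffeine-treated Tg4-42 and WT mice, 10 were higher and 23 lower, with a median of -0.27, and none passed. Tmem119, a membrane protein close to specific for microglia, was at 4.25 ± 0.870 CPM in WT, 5.20 ± 0.483 in vehicle-treated and 2.82 ± 0.437 in caffeine-treated Tg4-42 mice (SD, n = 3, edgeR adjusted p = 0.104 for caffeine against vehicle), and was named after its values were seen. Its log2 difference for caffeine against vehicle, -0.89, was larger than the median of -0.50 over the 33 tested genes, of which 5 were higher.

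Genes that microglia raise around amyloid and dying cells were mostly low or are shared with other cells. Of 18 such genes 13 were tested. In caffeine-treated against vehicle-treated Tg4-42 mice 3 were higher and 10 lower, with a median log2 fold change of -0.21, and in vehicle-treated Tg4-42 against WT mice 11 were higher and 2 lower, with a median of 0.16. None passed by edgeR in any comparison. Ccl3 and Ccl4 stayed under 3 counts in all 9 libraries, Itgax and Clec7a did not exceed 4 counts in any, and the most abundant of the list were Timp2, Lpl and Apoe, which neurons and astrocytes also make. Apoe, the lipid carrier, was at 65.5, 70.7 and 62.6 CPM in WT, vehicle-treated and caffeine-treated Tg4-42 mice.

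Several partners of the 9 genes are made by neurons and were far more abundant. Of 19 ligands and partners, 16 were tested. In caffeine-treated against vehicle-treated Tg4-42 mice 5 were higher and 11 lower, with a median log2 fold change of -0.42. Of these, 2 fell and 1 rose by edgeR's test.

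Cx3cl1 (fractalkine), the neuronal ligand of Cx3cr1, was at 1170 to 1611 CPM in WT, at 1426 to 1626 in vehicle-treated and at 756.9 to 1086 in caffeine-treated Tg4-42 mice. It fell by 0.79 on the log2 scale with caffeine (SE 0.16, edgeR adjusted p = 0.0399). Cd200, a neuronal ligand that restrains microglia through Cd200r1, was at 427.8 ± 77.3 CPM in vehicle-treated and at 222.8 ± 45.8 in caffeine-treated Tg4-42 mice (SD, n = 3) and fell by 0.94 on the log2 scale (adjusted p = 0.0365 by edgeR). Every caffeine-treated mouse was below every vehicle-treated mouse for both ligands. Among all tested genes, 12.6% were lower without overlap in caffeine-treated against vehicle-treated Tg4-42 mice, and 9.67% against WT mice. The receptor Cd200r1 itself had 0 to 10 counts per library.

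Tgfbr1, the type I receptor for TGF-β, a factor that maintains microglial identity and whose receptors are present on many cells, rose. It was at 17.9 ± 4.58 CPM in vehicle-treated and 33.0 ± 2.89 in caffeine-treated Tg4-42 mice (SD, n = 3), a log2 difference of 0.88 (edgeR adjusted p = 0.0399). Against WT mice, Tgfbr1 was higher by 0.97 (adjusted p = 0.0297) and Cd200 lower, at -0.89 (adjusted p = 0.0279, both by edgeR), and Cx3cl1 differed by -0.65 with an adjusted p of 0.0791. These calls for caffeine against vehicle were lost with the sequencing lane as a covariate. There the adjusted p by edgeR were 0.0633 for Cx3cl1 and Tgfbr1 and 0.0553 for Cd200. Of the 6 fits that each left out 1 mouse, 2 kept the calls of Cx3cl1 and Tgfbr1, and 3 kept that of Cd200. The largest adjusted p in those fits were 0.278 for Cx3cl1 and Tgfbr1 and 0.251 for Cd200. With lane the log2 differences were -0.78 for Cx3cl1, 0.89 for Tgfbr1 and -0.94 for Cd200. Against WT mice both calls were kept with lane, at an edgeR adjusted p of 0.0494 for each. In the fits without single mice, Tgfbr1 was called in 2 of 6 and Cd200 in 3 of 6. The adjusted p there reached 0.246 for Tgfbr1 and 0.233 for Cd200.

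The ligands of Csf1r did not pass the test. Il34, made by neurons, was at 92.7 ± 16.1 CPM in WT, 95.3 ± 27.4 in vehicle-treated and 57.0 ± 5.41 in caffeine-treated Tg4-42 mice (SD, n = 3, edgeR adjusted p = 0.0728 for caffeine against vehicle), and it shares 22 and 75 exon bases with 2 antisense genes. Csf1 was at 16.6 ± 3.37 and 20.8 ± 2.37 CPM (adjusted p = 0.478 by edgeR). Of the brake pair Cd47 and Sirpa, Cd47 was at 433.8 and 408.9 CPM and Sirpa at 410.8 and 297.9 (adjusted p = 0.780 and 0.117). Tgfb2 was at 37.3 and 52.1 CPM (adjusted p = 0.243), and Tgfb1 had 0 to 6 counts per library.

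Downstream of Trem2 and Tyrobp, the kinase Syk was at 2.45 CPM in vehicle-treated and 1.82 in caffeine-treated Tg4-42 mice and the phospholipase Plcg2 at 5.20 and 7.98 (edgeR adjusted p = 0.657 and 0.255). Hcst, another adaptor, did not exceed 1 count in any library. The ectonucleotidases Entpd1 and Nt5e, which break down extracellular nucleotides, were at 1.08 and 0.792 CPM and at 8.73 and 6.80 CPM (edgeR adjusted p = 0.662 and 0.415).

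C1q acts with the proteases C1r and C1s. C1ra was at 1.98 ± 0.373 CPM in vehicle-treated and 0.743 ± 0.455 in caffeine-treated Tg4-42 mice (SD, n = 3, edgeR adjusted p = 0.160), C1s1 was at 0.738 and 0.511, and their inhibitor Serping1 was at 2.44 and 3.62 (adjusted p = 0.389). Later steps of complement were sparse, with C3, the central component, at 0 to 8 counts per library and Cfb under 3 counts in all 9. Of 18 later components, receptors and regulators, 12 were tested, and 3 were higher and 9 lower in caffeine-treated than in vehicle-treated Tg4-42 mice, with a median log2 fold change of -0.15.

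Of these, 1 passed. Clu, a secreted chaperone of astrocytes and neurons that also blocks the end of the cascade, fell from 382.8 ± 50.3 to 213.3 ± 43.6 CPM (SD, n = 3), or by 0.84 on the log2 scale (edgeR adjusted p = 0.0385), and was at -0.82 against WT mice (adjusted p = 0.0297). The adjusted p for caffeine against vehicle was 0.0554 with lane as a covariate and up to 0.278 without single mice, and against WT mice 0.0551 and up to 0.288. The neuronal regulators Csmd3 and Csmd1 were at 453.1 and 378.3 CPM and at 375.2 and 401.9 CPM (adjusted p = 0.456 and 0.725). Neither the later complement genes nor the ligands held a gene that passed in vehicle-treated Tg4-42 against WT mice.

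Ctss was set beside its family. All 12 cathepsins and cystatins were tested and all 12 had lower estimates in caffeine-treated than in vehicle-treated Tg4-42 mice, with a median log2 fold change of -0.40, against 51.5% lower among all tested genes. Ctsb alone passed, at 1449 ± 94.8 and 911.9 ± 154.6 CPM (SD, n = 3), a fall by 0.67 on the log2 scale (edgeR adjusted p = 0.0469), which was lost with lane as a covariate (0.0688), with the replicate number as a block (0.0508) and without single mice (up to 0.304). Ctsb shares 774 exon bases with Fdft1 on the opposite strand. Ctsd was at 283.7 and 190.2 CPM (adjusted p = 0.0505) and the inhibitor Cst3 at 300.0 and 228.7 (adjusted p = 0.217). Per library the family summed to 1718 to 2980 CPM, and Ctss, which is not counted among the 12, was far below that sum at 4.91 to 10.5 CPM.

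Markers of other cells in the libraries were set beside the 9 genes. Macrophages of the brain's borders and blood cells share many microglial genes. Of 8 border macrophage genes, among them Mrc1, Lyve1 and Cd163, none passed the filter for testing and none reached 3 counts in all 9 libraries, and the list summed to 1.19 to 2.83 CPM per library. Of 9 blood genes, Ccr2 had 0 counts in all 9 libraries, and Ly6c2, Cd3e and Plac8 stayed under 3 counts. Levels of Ccr2 under the floor of 3 counts, or 0.189 to 0.324 CPM in a library, were not excluded. The haemoglobin gene Hbb-bs led this list, at 4.77 ± 0.604 CPM in WT, 4.77 ± 0.865 in vehicle-treated and 2.28 ± 0.727 in caffeine-treated Tg4-42 mice (SD, n = 3, edgeR adjusted p = 0.0866 for caffeine against vehicle).

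Other glial markers were lower in caffeine-treated mice along with the 9 genes. In caffeine-treated against vehicle-treated Tg4-42 mice, 9 of 10 astrocyte genes had lower estimates, with a median log2 fold change of -0.67, and summed to 448.0 to 586.6 CPM in WT, 447.9 to 583.1 in vehicle-treated and 355.6 to 475.0 in caffeine-treated Tg4-42 mice. For oligodendrocytes 9 of 10 were lower, with a median of -0.51 and sums of 346.2 to 509.4, 380.8 to 534.9 and 273.1 to 387.1 CPM. For their precursors 4 of 5 tested genes were lower (median -0.44, sums of 5.40 to 11.0, 6.38 to 12.9 and 6.83 to 8.44 CPM). None of these genes passed by edgeR. Their part in the result for the 9 genes was not tested.

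Vascular markers gave 4 of 5 tested genes lower with caffeine (median -0.28), with Cdh5 under 3 counts in all 9 libraries. Of the 12 neuronal markers 9 were lower and 3 higher, with a median of -0.16, and their sums were 15270 to 16820 CPM in WT, 14151 to 15923 in vehicle-treated and 13323 to 13981 in caffeine-treated Tg4-42 mice. Meg3, the largest part of these sums, averaged 7504 CPM in WT, 6161 in vehicle-treated and 6128 in caffeine-treated Tg4-42 mice. The 3 higher were Rbfox3, Camk2a and Nrgn. Their means in Tg4-42 mice were 110.8, 283.9 and 181.0 CPM with vehicle and 134.6, 320.1 and 270.3 with caffeine. None of the vascular or neuronal markers passed by edgeR, and their part was not tested either.

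**Figure D5:**
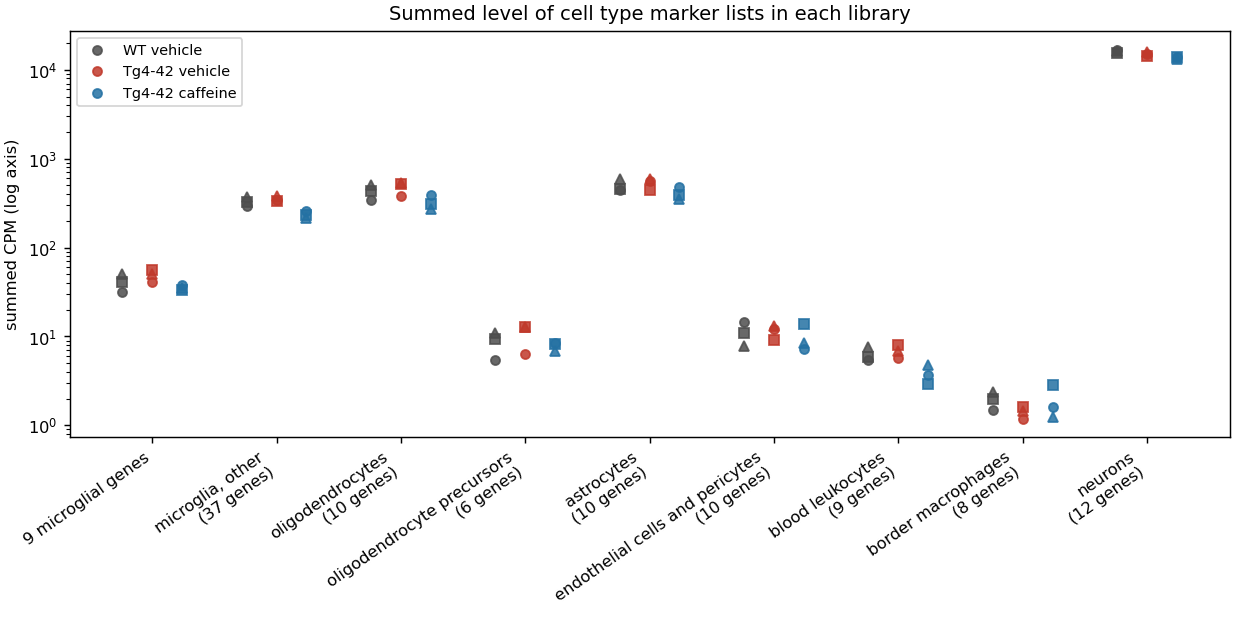
Summed CPM (vertical axis, log scale) of the 9 microglial genes and of 8 marker lists in each library, coloured by group, with circle, square and triangle for mouse 1, 2 and 3. The 9 genes lie at 31.6 to 55.5 CPM, above border macrophage genes at 1.19 to 2.83 and below astrocyte genes at 355.6 to 586.6 and neuronal genes at 13323 to 16820.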

How the data were processed

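RNA from NeuN-sorted hippocampal nuclei of 9 mice was sequenced as single-end reads after SMART-Seq v4 amplification and Nextera XT library preparation, which do not mark strand. The authors mapped reads to mm10 with STAR and deposited exon counts per gene from featureCounts, unnormalized, in 1 table per mouse. Versions, annotation and strand setting are not given in the sources used here. The names of the tables give the sequencing lane, which was 6 for mice 1 and 2 and 7 for mouse 3 of every group. Groups came from genotype and treatment labels. The labels name caffeine only, and the paper's methods give vehicle for the others. For isolating nuclei the protocol in the labels gives n = 6 per group, the paper's methods give 3, and there are 3 tables per group, each taken here as 1 mouse from its title.

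Depth was 9342945 to 16376922 counts per library. To look for a repeated library, libraries of 1 group were compared, and they differed by a chi-square of 8.98 to 21.1 per gene, so each was counted as 1 sample. Genes were filtered with filterByExpr (minimum count 10, minimum total 15), which left 17361, all 9 members among them. Counts of all 9 libraries were fitted with edgeR 4.0.16 (R 4.3.3), TMM factors and the robust quasi-likelihood F test, with Benjamini-Hochberg adjustment over all tested genes and a threshold of 0.05. DESeq2 1.42.0, limma-voom (limma 3.58.1) and the other settings in the closing section were alternatives. The paper used DESeq2 for its own comparisons of these groups. CPM, intervals, sums and levels per kilobase (GENCODE M21 exons) were computed from the counts. A gene is said to have risen or fallen only where it passed.

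The members and all gene lists were chosen with earlier results of these data known, so lists are given by counts and medians with no test. Named genes are the members, the called genes, the 3 most abundant or the genes at 0 of each list, all ligands and partners, genes overlapping a member and the 5 genes most alike in pattern. 1 gene that this rule names is not reported here. Others, such as markers near 0, were named after their values were seen. With 3 mice against 3, an exact permutation test cannot go below 0.1 and was not used for calls.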

Additional observations from a re-analysis of the deposited data

How the results depend on the processing

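For the 9 genes, 0 were called by edgeR in each comparison, and the count changed only for caffeine-treated against vehicle-treated Tg4-42 mice, to 1 (Ctss) with DESeq2 and to 1 (Ctss) with limma-voom; over the other settings its adjusted p reached 0.128, and 0.11 to 0.439 without single mice. The direction of the estimate was kept in 116 of 123 alternative values for vehicle-treated Tg4-42 against WT mice (exceptions in C1qc, Csf1r and P2ry12), in 122 of 123 for caffeine against vehicle (exception Tyrobp) and in 113 of 123 for caffeine-treated Tg4-42 against WT mice. Requiring a mean count of 50 removed C1qa, Trem2 and Tyrobp, and DESeq2 gave no adjusted p for Tyrobp for caffeine against vehicle or for C1qa, Trem2 and Tyrobp for caffeine-treated Tg4-42 against WT mice. Counts over all genes moved further. For vehicle-treated Tg4-42 against WT mice the 17 called genes became 74 with no filter on low counts and 14 to 18 without single mice. For caffeine against vehicle the 153 became 751 with DESeq2, 987 with no filter, 587 with limma-voom, 9 with lane as a covariate and 0 to 341 without single mice (0 without vehicle-treated mouse 3 or caffeine-treated mouse 3, 341 without caffeine-treated mouse 1). For caffeine-treated Tg4-42 against WT mice the 72 became 553, 860, 125 and 42 under the same settings and 16 to 287 without single mice. With the replicate number as a block (replicate block), 16, 187 and 82 genes and none of the 9 were called, and the call of Ctsb for caffeine against vehicle was lost, at an adjusted p of 0.0508, with no other call changed among the 9 genes, Tgfbr1, Cx3cl1, Clu, Lgmn and Cd200. The numbers follow the order of the samples and are no label of a shared animal, and same-numbered mice deviated with correlations of 0.138 to 0.188 between WT and vehicle-treated Tg4-42, of -0.17 to 0.008 between WT and caffeine and of -0.171 to 0.181 between vehicle and caffeine. The causes were not tested. Low counts limit Tyrobp, Trem2 and C1qa most.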

Other observations

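The genes whose log2 CPM followed the summed level of the 9 microglial genes most closely over the 9 libraries, outside the microglial lists, were Vcam1 (Pearson r = 0.964), Mag (0.951), Atp2a2 (0.946), Jup (0.944) and Olig1 (0.942). Mag and Olig1 are genes of oligodendrocytes, Vcam1 is a cell adhesion molecule, Atp2a2 a calcium pump and Jup a junction protein. The points are 9 libraries with a common depth and scaling, and the genes were picked as the highest among all tested, so the values describe these libraries only.

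Genes that share the C1q domain but are made by neurons were the most abundant relatives of the C1q chains. C1ql2, a synaptic organiser of dentate granule cells, was at 173.1 ± 69.9 CPM in vehicle-treated WT, 177.1 ± 95.5 in vehicle-treated Tg4-42 and 283.1 ± 72.4 in caffeine-treated Tg4-42 mice (SD, n = 3, edgeR adjusted p = 0.505 for caffeine against vehicle). Cbln2 was at 39.2, 44.6 and 32.5 CPM and C1ql3 at 35.1, 34.8 and 36.7. Of the 9 tested genes of the list, which also holds C1qbp, a C1q-binding protein without this domain, 6 were higher and 3 lower with caffeine, with a median log2 fold change of 0.32, and none passed. The 3 lower were Cbln4, Cbln1 and Cbln2, at -1.09, -1.02 and -0.46 on the log2 scale (edgeR adjusted p = 0.058, 0.195 and 0.311). Of the 6 higher, C1ql2 had the largest difference, at 0.68. Cbln4 and Cbln1 were named after their values were seen. C1ql4 stayed under 3 counts in all 9 libraries.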
